A study of Mus musculus with 12 samples.

Results

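The replication-dependent histone genes of newborn mouse calvaria were examined as a family. Members were chosen by symbol, as the genes whose current mouse name begins with H2ac, H2bc, H3c or H4c and a number, the linker histone genes H1f1 to H1f5, and the genes with the older names Hist3h2a, Hist3h2ba, Hist4h4 and Hist1h2br (now H2aw, H2bu2, H4f16 and H4bc24). The reference gene table held 68 such genes, and 66 of them had a value among the 23715 genes measured. One member, H2bc8 (Hist1h2bg), had drawn attention to the family by its low level in Med23-deficient calvaria. The values of the Med23 comparison are therefore given as a description without p-values for the members. The same fit across all genes was run for both comparisons, but only in the Runx2 comparison is its test of a member reported as a result.

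RNA-seq had been made from calvaria of 12 individual newborn C57BL/6 mice in 4 groups of 3. The paper's methods name the parietal bone as the source of the RNA. The first comparison set Med23 MSC -/- mice, which carry Med23 fl/fl and a Prx1-Cre transgene that deletes the Mediator subunit Med23 in craniofacial and limb mesenchyme, against control littermates without the deletion, which the labels call WT. In the paper the controls of the Med23 MSC -/- mice are Med23 fl/fl. The second comparison set Runx2+/- mice, which lack 1 allele of the osteoblast transcription factor Runx2, against WT littermates. Prx1-Cre acts in mesenchymal cells, so blood, muscle and other cells in the bulk tissue keep Med23, and in such tissue fewer cells of a type and less RNA per cell cannot be told apart.

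Core histones H2A, H2B, H3 and H4 form the protein octamer around which DNA winds, and the linker histone H1 binds where DNA enters and leaves it. The replication-dependent genes lie in clusters, are short and mostly without introns, and are transcribed mainly in S phase, when new DNA has to be packed. Their mRNAs usually end in a conserved stem-loop bound by Slbp instead of a poly(A) tail. Some cluster genes also yield polyadenylated transcripts in differentiated cells. The library kit named in the labels usually enriches poly(A) RNA, so the FPKM values (fragment counts scaled to transcript length and to the depth of the library) cover the family only as far as its mRNAs entered such libraries.

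The stem-loop is shown because it is the feature by which these mRNAs differ from most others. Of the 66 members, 34 had a match to the stem-loop pattern in their GENCODE transcript. The forms found, in 26 H1, H2A, H2B and H3 members, in 7 H4 members and in H4c1, are written with the sequence of the stem in capitals, so that each starts and ends with complementary runs.
H1, H2A, H2B and H3: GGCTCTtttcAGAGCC
H4: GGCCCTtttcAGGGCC
H4c1: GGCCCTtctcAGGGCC
Of the 5 members with a mean of at least 10 FPKM, 3 carried the match (H1f2, H2ac18 and H2aw). The GENCODE transcripts of H2bc4 and H4c9 held no match, which says only that these letters are not in those transcripts.

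Many members also share most of their coding sequence with another member, which bears on how a read can be assigned. The first 60 coding bases of H2bc8 are shown beside those of other H2B genes, with capitals at each base that differs from H2bc8.
H2bc8: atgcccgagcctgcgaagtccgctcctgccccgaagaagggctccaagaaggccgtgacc
H2bc4: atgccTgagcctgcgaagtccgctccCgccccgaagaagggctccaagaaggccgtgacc
H2bc7: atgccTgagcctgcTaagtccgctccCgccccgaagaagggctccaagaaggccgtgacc
H2bc12: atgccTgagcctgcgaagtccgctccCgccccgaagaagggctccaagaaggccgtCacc
H2bc18: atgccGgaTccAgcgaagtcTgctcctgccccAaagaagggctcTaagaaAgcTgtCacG
H2bc21: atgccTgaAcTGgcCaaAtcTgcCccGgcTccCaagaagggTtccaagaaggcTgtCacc
H2bu2: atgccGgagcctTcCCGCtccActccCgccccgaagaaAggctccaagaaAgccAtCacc
H2bc4 and H2bc8 differed at 2 of these 60 bases, and H2bc21 at 14. Over the 381 coding bases H2bc8 was 98.7% identical to H2bc4, 98.2% to H2bc7 and 97.6% to H2bc12, but 89.8% to H2bu2, 88.7% to H2bc18 and 86.4% to H2bc21. Of all 50-base stretches of the H2bc8 coding sequence, 85.2% occurred unchanged in another member, against 0% for H2bc18, H2bc21 and H2bu2. This share was 97.6% for H2bc4, 21.9% for H1f2 and 12.2% for H2aw. The pairs H2ac18 and H2ac19, H2ac23 and H2ac24, and H4c17 and H4c18 had identical coding sequences. Reads from one copy of such genes may be divided among several, and levels of single copies are uncertain for this reason.

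Promoters are given for H2bc8 and for H1f2 and H2ac18, which are 2 of the 3 most abundant members and were also lower in Med23 MSC -/- mice (the promoter table has no entry for the other one, H2bc4), as 250 bases before and 50 after the RefSeq start (GRCm38.p6, plus strand for all 3). Capitals mark the TATA box TATAAA, the CCAAT box, the octamer ATTTGCAT, the E2F-type site TTTGGCGC and the Runx core TGTGGT, each on either strand, and none of the marked motifs overlapped.
H2bc8, chr13:23571150-23571449: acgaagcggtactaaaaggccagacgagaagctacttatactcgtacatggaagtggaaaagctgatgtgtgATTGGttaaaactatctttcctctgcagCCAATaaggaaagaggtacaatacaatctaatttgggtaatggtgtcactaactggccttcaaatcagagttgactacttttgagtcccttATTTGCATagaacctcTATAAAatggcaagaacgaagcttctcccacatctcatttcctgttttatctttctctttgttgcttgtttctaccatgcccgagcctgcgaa
H1f2, chr13:23738557-23738856: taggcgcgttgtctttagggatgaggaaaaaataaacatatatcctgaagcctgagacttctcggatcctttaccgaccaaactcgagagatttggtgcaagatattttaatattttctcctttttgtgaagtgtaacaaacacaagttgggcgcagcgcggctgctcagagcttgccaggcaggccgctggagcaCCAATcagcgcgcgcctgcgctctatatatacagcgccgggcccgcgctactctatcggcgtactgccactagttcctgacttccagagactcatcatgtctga
H2ac18, chr3:96245247-96245546: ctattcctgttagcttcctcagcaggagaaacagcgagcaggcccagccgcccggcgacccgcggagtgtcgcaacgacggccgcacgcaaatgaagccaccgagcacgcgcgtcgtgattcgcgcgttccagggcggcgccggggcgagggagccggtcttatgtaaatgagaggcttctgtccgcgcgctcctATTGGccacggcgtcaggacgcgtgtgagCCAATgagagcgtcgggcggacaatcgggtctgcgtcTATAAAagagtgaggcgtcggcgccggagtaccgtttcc
H2bc8 held CCAAT on both strands, the octamer ATTTGCAT and, after it, TATAAA. In H1f2 only CCAAT was found, and in H2ac18 CCAAT and TATAAA. The promoter table held 62 windows for 61 members, with 2 for H2bc6. CCAAT was present in 85.5% of these windows, against 37.4% of all 32851 promoters of the same length. It was present in every H1, H2A, H2B and H3 window and in 25% of the H4 windows. TATAAA was found in 56.5% of the member windows and 13.6% of all promoters. The octamer, which is the site of Pou2f1 (Oct-1), stood in 38.9% of H2A and 41.2% of H2B windows, in no window of the other families and in 1.74% of all promoters. TGTGGT, the core letters of the Runx site, was found in 9.68% of the member windows and 16.8% of all promoters. TTTGGCGC, an E2F-type site, was found in no member window and in 0.514% of all promoters. These are matches of letters only.

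Depth was estimated from the smallest values at 7900000 to 11800000 fragments per mouse, and 41 of the 66 members passed the filter of at least 1 FPKM in at least 3 mice, beside 13059 genes in all. Whole-gene FPKM did not show either targeted gene lower in its mutants and does not check the deleted part: Med23 lay at 4.54 to 5.99 in controls and 4.89 to 5.74 in mice labelled Med23 MSC -/-, and Runx2 at 27.3 to 37.7 in WT and 30.4 to 35.7 in mice labelled Runx2+/-. Directions below therefore rest on the labels. The female-specific transcript Xist was at 37.8 and 49.1 FPKM in controls 3 and 2 and at 42.4 in WT 1, and under 0.1 in the other 9 mice. The Y-linked gene Ddx3y showed the reverse, under 0.1 in those 3 mice and at 30.9 to 39.4 FPKM in the other 9. By these genes controls 2 and 3 and WT 1 were female and all 6 mutants male. Sex and genotype thus cannot be fully told apart in either comparison. Osteoblast markers were abundant, as the tissue label requires, and marker levels differed between groups. The summed FPKM of 10 skeletal muscle genes ran from 26.3 to 1549 in controls, 665 to 4654 in Med23 MSC -/-, 2139 to 6387 in WT and 30.9 to 209 in Runx2+/- mice. That of 11 osteoblast genes was 49874 to 52522 in controls and 26002 to 33874 in Med23 MSC -/- mice, with 39962 to 46613 in WT and 30427 to 39204 in Runx2+/- mice. That of 9 erythroid genes was 15703 to 21387, 8660 to 14406, 18361 to 20982 and 4778 to 19280 in the same order. In the Med23 comparison 10 of 10 muscle genes were above 0 with none called, 11 of 11 osteoblast genes were below 0 with 1 called and all 7 tested erythroid genes were below 0 with none called. In the Runx2 comparison 9 of 10 muscle genes were called lower, and no osteoblast or erythroid gene was called. All 7 tested erythroid genes were below 0 there too, with a median log2 fold change of -1.07, against -0.64 in the Med23 comparison. The 6 tested neutrophil and granulocyte precursor genes were all below 0 in the Runx2 comparison (median -1.29). In the Med23 comparison 4 of these 6 were below 0 (median -0.33), and none was called in either. The part of these marker genes in the values of the histone genes was not tested.

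H2bc8 encodes an H2B protein, lies at chr13:23571400-23571863 (GRCm38.p6) and had a mean of 3.66 FPKM over the 12 mice. Control mice 1 to 3 had 5.12, 8.40 and 3.95 FPKM. Med23 MSC -/- mice 1 to 3 had 1.29, 0.158 and 0 FPKM. All 3 mutants thus lay below all 3 controls, and 1 mutant was listed at 0. At the estimated depth the controls correspond to 27.9, 42.8 and 16.8 fragments and the mutants to 5.30, 0.575 and 0, so the mutant values rest on very few reads. The log2 fold change, on the log2(FPKM + 1) scale, was -2.25 (SE 0.35, n = 3 mice per group) and became -4.10 with a pseudocount of 0.1. WT mice had 7.83, 4.30 and 3.24 FPKM and Runx2+/- mice 2.20, 0.441 and 6.97, so these groups overlapped. In the Runx2 comparison its log2 fold change was -0.81 (SE 0.56, adjusted p = 0.552 by limma, n = 3), which does not exceed the spread between mice. Runx2+/- mouse 2 was as low as the Med23 MSC -/- mice while mouse 3 was at the level of controls.

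The share of H2bc8 in all H2B FPKM was small throughout, at 2.12 to 4.59% in controls, 0 to 0.891% in Med23 MSC -/- mice, 1.58 to 4.98% in WT and 0.283 to 4.14% in Runx2+/- mice. The dominant H2B gene was H2bc4 (Hist1h2bc), with 70.0 to 92.3% of the H2B sum. When the values of H2bc8 and of H2bc4, its closest copy, were added, controls had 190, 175 and 168 FPKM and Med23 MSC -/- mice 121, 106 and 109. This sum, taken after the values had been seen, was 0.631 times the control level in the mutants (mean 112 ± 8.30 against 177 ± 11.3, SD, n = 3). In Runx2+/- mice the same sum was 0.936 times that of WT.

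Most of the histone signal came from 3 genes, H2bc4, H1f2 (Hist1h1c) and H2ac18 (Hist2h2aa1), which held 58.9 to 81.1% of the summed FPKM of all members. All 3 were lower in each Med23 MSC -/- mouse than in each control, and they did not differ beyond the spread between mice in the Runx2 comparison. H2aw was present at a lower level with the same order of groups. All 4 varied less within groups than most of the rest of the family did.

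H1f2, at chr13:23738807-23739531, encodes a linker histone. Its FPKM was 171, 158 and 149 in controls and 86.9, 93.0 and 68.7 in Med23 MSC -/- mice, with no overlap. The log2 fold change was -0.95 (SE 0.13, n = 3). WT mice had 82.6, 90.0 and 117 FPKM and Runx2+/- mice 124, 95.2 and 75.4. The mutants of the Med23 comparison thus stood near the level of both groups of the other comparison, and the controls above all 9 other mice. The log2 fold change in Runx2+/- mice was 0.01 (SE 0.19, adjusted p = 0.984 by limma).

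H2bc4, at chr13:23684199-23692480, had 185, 166 and 164 FPKM in controls and 120, 106 and 109 in Med23 MSC -/- mice, a log2 fold change of -0.62 (SE 0.09, n = 3). It is the most abundant member, at a mean of 145 FPKM. In WT mice it was at 130, 148 and 179 FPKM and in Runx2+/- mice at 165, 144 and 123, with a log2 fold change of -0.08 (SE 0.15, adjusted p = 0.860 by limma). The mutants with a Med23 deletion were below each of the 9 other mice.

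H2ac18 encodes an H2A protein from the cluster on chromosome 3 (chr3:96245497-96246052). It was measured at 107, 106 and 92.7 FPKM in controls and 74.2, 84.5 and 73.6 in Med23 MSC -/- mice (log2 fold change -0.39, SE 0.10, n = 3). WT values were 75.0, 97.0 and 100.1 FPKM and Runx2+/- values 73.3, 90.1 and 77.6 (log2 fold change -0.17, SE 0.13, adjusted p = 0.607 by limma). Here the Med23 MSC -/- values lay within the range of the Runx2+/- mice. H2aw (Hist3h2a), an H2A gene at chr11:58954685-58955192, had 19.9, 16.3 and 16.8 FPKM in controls and 11.4, 15.7 and 14.6 in Med23 MSC -/- mice (log2 fold change -0.33, SE 0.14). Its highest mutant and lowest control differed by little. In WT and Runx2+/- mice it was at 12.3 to 20.6 FPKM (log2 fold change -0.18, SE 0.15, adjusted p = 0.638 by limma).

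**Figure D1:**
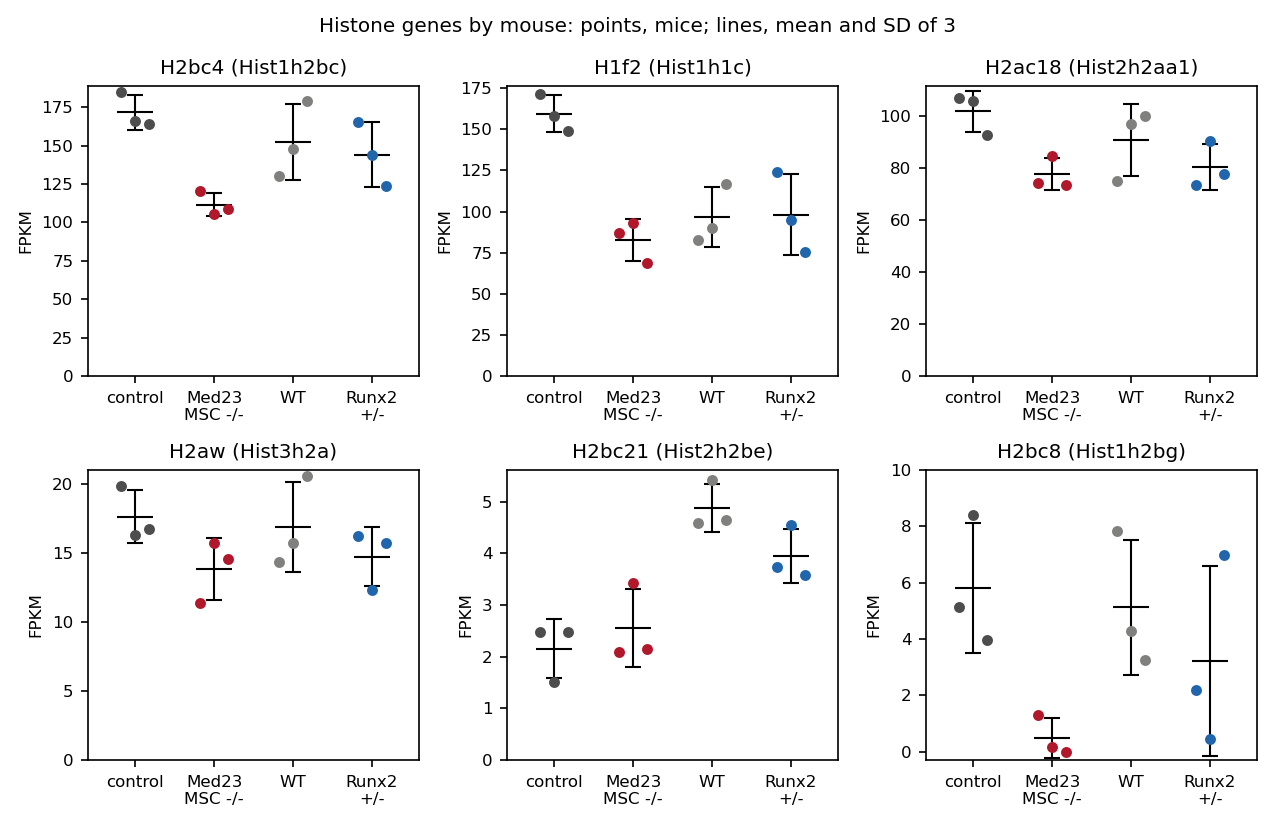
FPKM (linear axis) of H2bc4, H1f2, H2ac18, H2aw, H2bc21 and H2bc8 in each of the 12 mice, 1 point per mouse, with the mean and SD of 3 mice as lines. H2bc4, H1f2, H2ac18 and H2aw are lower in all 3 Med23 MSC -/- mice than in all 3 controls, H2bc21 is not, and H2bc8 reaches 0 in 1 Med23 MSC -/- mouse and 0.441 in 1 Runx2+/- mouse.

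In the Med23 comparison the fit called 205 of all 13059 genes (1.57%) at an adjusted p under 0.05, of which 73 (0.559%) were lower. Among the 41 tested members it called 3, all lower, and none with any of the 6 mice left out. Since this comparison had singled out H2bc8, nothing is read from these counts. In 6 members all mutants were below all controls (H1f2, H2bc4, H2ac18, H2aw, H2bc8 and H3c11), beside 7.68% of all tested genes. In 1 member, H2bu2 (Hist3h2ba), all mutants were above all controls, beside 19.6% of all tested genes. It had 1.66, 1.02 and 1.63 FPKM in controls and 6.73, 2.77 and 1.83 in mutants. Over the 41 members the median log2 fold change was -0.24, with 23 below 0 and 18 above, while the median over all tested genes was 0.06 and 38.7% of them were below 0. The median of the members came to between -0.24 and 0.05 when single mice were left out.

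In the Runx2 comparison 2 of the 41 members were called, both lower (4.88%), beside 1.49% of all genes called lower, and no member was called higher. Both belong to the sets of close copies. H2ac19 (Hist2h2aa2) had 4.76, 3.69 and 6.03 FPKM in WT and 0.988, 0.0422 and 0.382 in Runx2+/- mice, a log2 fold change of -2.02 (SE 0.25, adjusted p = 0.0165 by limma, lower in all 3 mice). Its coding sequence is the same as that of H2ac18, and in the 6 mice of the other comparison its level ran from 0.384 to 12.03 FPKM. The sum of H2ac18 and H2ac19, taken after the values had been seen, was 79.7, 101 and 106 FPKM in WT and 74.2, 90.2 and 78.0 in Runx2+/- mice, which overlap. The call was lost when all 12 mice shared 1 fit (adjusted p = 0.247), without the filter on low values (adjusted p = 0.0809) and without WT mouse 1 (adjusted p = 0.0635), within a range of 0.0242 to 0.0635 over the mice left out.

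H4c12 (Hist1h4k) was the other gene called in this comparison. It had 10.8, 2.94 and 2.98 FPKM in WT and was listed at 0 in all 3 Runx2+/- mice (difference -2.51 on the log2(FPKM + 1) scale, SE 0.39, adjusted p = 0.0263 by limma). In control and Med23 MSC -/- mice it was at most 0.111 FPKM, so it was close to 0 in 9 of the 12 mice. The adjusted p lay between 0.0148 and 0.0793 when single mice were left out, and it was above 0.05 when any of the 3 Runx2+/- mice was left out and, at 0.0943, without the filter on low values. Another 3 members, H1f4, H2bc21 and H4c2, were lower in all Runx2+/- than in all WT mice without passing the test (adjusted p = 0.452, 0.361 and 0.173 by limma), and H2ac24 was higher in all of them (adjusted p = 0.255). The share of all genes with such an order was 10.4% in the lower and 10.7% in the higher direction. The median log2 fold change of the members was -0.27, with 28 below 0 and 13 above, against 0.02 over all tested genes, of which 43.9% were below 0.

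Family sums per mouse show how far the changes of single genes carry over to a histone type. The H1 sum was 173, 163 and 152 FPKM in controls and 89.1, 96.3 and 72.9 in Med23 MSC -/- mice, 0.529 times the control mean. The H2B sum was 207, 183 and 186 FPKM in controls and 145, 151 and 139 in mutants, a ratio of 0.755. Both sums followed their dominant gene, H1f2 and H2bc4. Without H2bc4 the remaining H2B genes had 21.9, 16.7 and 22.5 FPKM in controls and 24.7, 45.3 and 30.6 in mutants. The order of this sum was the opposite. H2bc15 alone gave 31.1 FPKM of it in mutant mouse 2. H2bc12 gave 11.6 and 11.04 FPKM in mutant mice 1 and 3, with 0 in mutant mouse 2 and up to 7.03 in controls. Both share most of their coding 50-base stretches with other members, so their single levels are uncertain. Whether the order holds without them was not tested. The H2A sum overlapped between the groups (136 to 158 against 97.7 to 138 FPKM), as did the H3 sum (11.9 to 31.2 against 11.6 to 29.7). The H4 sum was 41.6, 34.5 and 46.0 FPKM in controls and 48.2, 58.5 and 46.4 in mutants, with the lowest mutant just above the highest control. Over all members the sum was 564 ± 18.3 in controls and 426 ± 34.1 in mutants (SD, n = 3), a ratio of 0.755. Without the 3 dominant genes it was 131 ± 12.9 and 154 ± 37.9, and the groups overlapped.

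In the Runx2 comparison the sums of H1, H2A, H2B and H3 overlapped between WT and Runx2+/- mice, with ratios of 1.00, 0.857, 0.914 and 0.979. The H4 sum did not overlap, at 44.2, 50.8 and 84.5 FPKM in WT and 30.7, 37.5 and 27.7 in Runx2+/- mice, a ratio of 0.534. Over all members the sum was 487 ± 87.1 in WT and 426 ± 19.8 in Runx2+/- mice (SD, n = 3), with overlap. The family as a whole was 0.0380 to 0.0639% of all FPKM in a mouse.

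**Figure D2:**
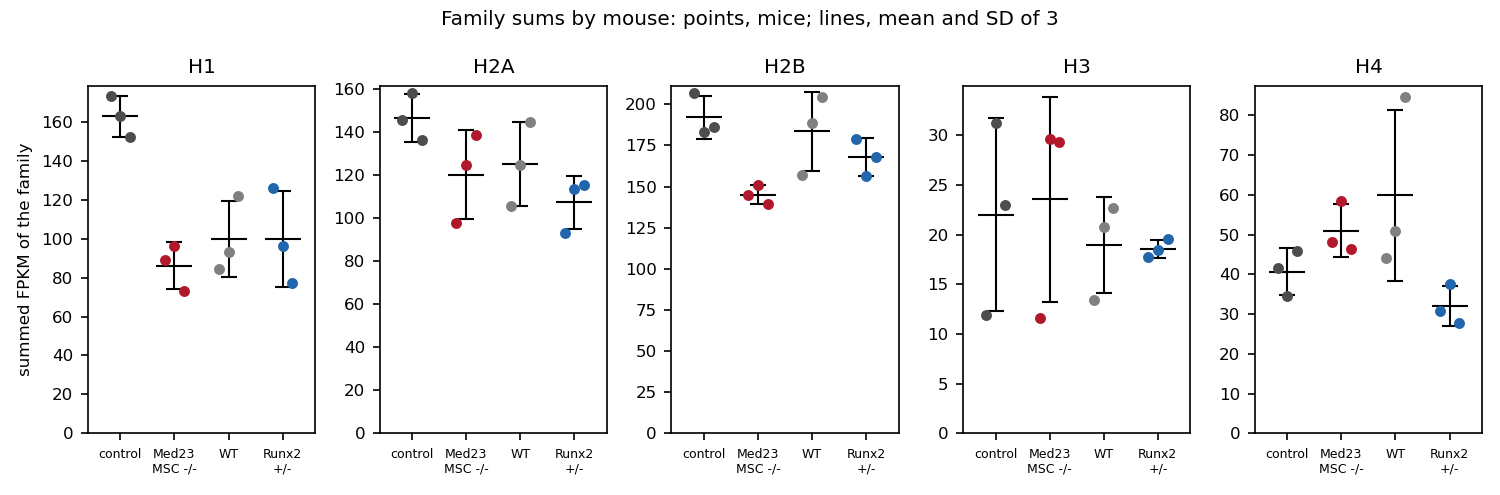
Summed FPKM (linear axis) of the H1, H2A, H2B, H3 and H4 members in each mouse, 1 point per mouse, with mean and SD of 3 mice as lines. The H1 and H2B sums are lower in all Med23 MSC -/- mice than in all controls (ratios 0.529 and 0.755), and the H4 sum is lower in all Runx2+/- than in all WT mice (ratio 0.534).

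Beyond the abundant genes the family was measured at low and uneven levels. Of the 66 members, 64 were above 0 in at least 1 mouse and 19 in all 12, 35 had a mean of at least 1 FPKM, and 5 a mean of at least 10. The testis-type genes H2ac1 and H2bc1 were listed at 0 in every mouse. By family, 1 of 5 H1, 8 of 18 H2A, 10 of 18 H2B, 7 of 12 H3 and 9 of 13 H4 members had a mean of at least 1 FPKM. Of the members, 53 lie in the cluster region on chromosome 13, 10 on chromosome 3 and 3 elsewhere.

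Some lower members were above 1 FPKM in every mouse. H2bc21 (Hist2h2be), an H2B gene with no 50-base stretch of coding sequence in common with another member, had 2.48, 1.504 and 2.48 FPKM in controls and 2.08, 3.42 and 2.16 in Med23 MSC -/- mice (log2 fold change 0.17, SE 0.20). In WT it had 4.58, 5.42 and 4.64 FPKM and in Runx2+/- mice 3.73, 4.55 and 3.58 (log2 fold change -0.25, SE 0.12, adjusted p = 0.361 by limma). Each of the 6 mice of the Runx2 comparison was above each of the 6 of the Med23 comparison, the reverse of what was seen for H1f2 in controls. H2bc18 (Hist2h2bb), equally without shared stretches, ranged from 1.41 to 6.83 FPKM. H3c14 and H3c15, H3 genes with identical reading frames, ranged from 1.18 to 6.30 and from 1.07 to 6.12 FPKM. Their sum was 8.70 ± 2.06 in controls, 5.97 ± 1.95 in Med23 MSC -/-, 6.61 ± 1.10 in WT and 5.38 ± 1.99 in Runx2+/- mice (SD, n = 3). H4c9 (Hist1h4i) was the most abundant H4 gene at 7.93 to 29.4 FPKM, with a log2 fold change of 0.37 (SE 0.43) in Med23 MSC -/- and 0.04 (SE 0.25, adjusted p = 0.960 by limma) in Runx2+/- mice.

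Many other members jumped between mice of the same group. Of the 30 members with a mean from 1 to under 10 FPKM, 17 had a group in which 1 mouse was below 0.1 and another at 5 or more. H2bc15 (Hist1h2bn) was at 31.1 FPKM in Med23 MSC -/- mouse 2 and at most 3.56 in all others. H2bc11 was at 26.7 FPKM in Runx2+/- mouse 3 and under 1 in the 11 others, and H2ac24 was at 27.1 FPKM in Med23 MSC -/- mouse 3 and at most 4.56 elsewhere. H2bc13 reached 22.4 FPKM in WT mouse 2, with a median of 0.00176 over the 12 mice. Such values show single mice standing apart without their group.

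Among the remaining H2A genes, H2ac11 ranged up to 19.2 FPKM (median 1.75), H2ac23 up to 16.03 (median 0.0310), H2ac7 up to 15.9 (median 0.656) and H2ac8 up to 8.33 (median 1.18). Of the H2B genes, H2bc12 ranged up to 11.6 FPKM (median 1.18), H2bc3 up to 7.40 (median 1.25) and H2bu2 up to 6.73 (median 1.90). The H3 genes H3c2, H3c3, H3c4, H3c10 and H3c11, all coding for replication-type H3, had maxima of 10.6, 8.75, 7.47, 8.47 and 5.73 FPKM and medians of 4.34, 0.994, 0.672, 0.0721 and 1.01. The H4 genes H4c8, H4c3, H4c4, H4c17, H4c2, H4c1 and H4c14 had maxima of 18.9, 19.1, 20.1, 11.2, 13.3, 11.2 and 6.02 FPKM. None of these genes passed the test in the Runx2 comparison, for which H4c1 was too low. Of the linker genes other than H1f2, H1f1, H1f3, H1f4 and H1f5 reached at most 2.32 FPKM in any mouse, with medians of 0.560, 0.437, 0.617 and 0.830.

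**Figure D3:**
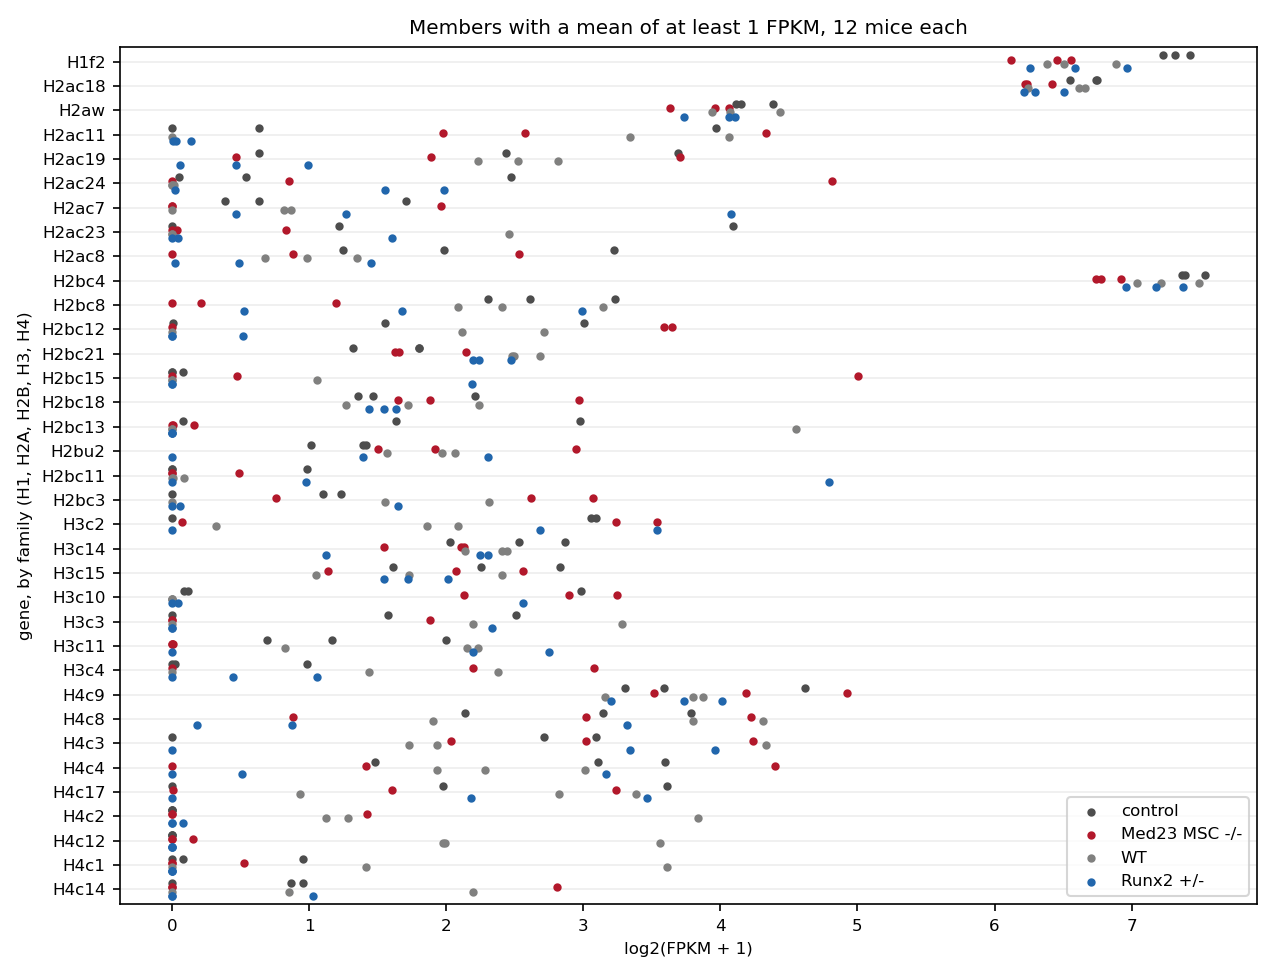
Log2(FPKM + 1) of the 35 members with a mean of at least 1 FPKM, ordered by family and level, 12 mice per gene and 1 color per group. H2bc4, H1f2 and H2ac18 form tight groups of points at the right and H2aw forms one further left. Of the others, 17 have a group with 1 mouse below 0.1 and another at 5 or more FPKM.

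This spread was wider than that of most genes of the same level. The within-group SD of log2(FPKM + 1), averaged over the 4 groups as the root of the mean variance, had a median of 1.15 over the 28 tested members with a mean from 1 to under 10 FPKM, against 0.17 over all 6361 tested genes of that level. It was above 1 in 18 of the 28 members (64.3%) and in 0.975% of all those genes. The genes were matched by FPKM and not by length, and a short gene has fewer fragments at the same FPKM. How far this widened the spread of the members was not tested. In the 5 members from 10 FPKM upward the median was 0.21, against 0.13. Members with fewer than 50% of their coding 50-base stretches in another member (11 of the 41) had a median SD of 0.49, and those with more (30) one of 1.05. There were exceptions on both sides. The abundant H2bc4 (97.6% shared) and H2ac18 (100% shared) had an SD of 0.17 and 0.16. H4c4 (42.2% shared) and H4c14 (6.08% shared) had one of 1.54 and 1.06. These groups of members were not matched for level, so the part of shared sequence in the spread was not tested. Many values were also smaller than a single read could give. Of 506 values above 0 in the 60 members under 1 kb, 125 (24.7%) were below what 0.5 fragments would give at the estimated depth, against 2.60% of 12671 such values in 3972 other genes with 1 transcript under 1 kb. Fractions of reads are thus part of the measured levels of these genes, and whether their copies truly differ between mice was not tested.

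The partners of the histone genes were examined by lists. None of their genes passed the test in either comparison, which called 1.57% and 1.89% of all genes. Genes of DNA replication and S phase, the period in which histone mRNAs are made, were measured higher in Med23 MSC -/- mice in 25 of 26 cases, with a median log2 fold change of 0.40 against 0.06 over all genes. All 26 had an adjusted p above 0.05. Of all 13059 tested genes, 8006 were above 0 in this comparison. The median of the list was 0.34 with equal upper quartiles and 0.31 with equal FPKM sums, with 24 of 26 above 0 in each. The mean level of the list, on the log2(FPKM + 1) scale, was 3.48 to 4.02 in controls and 4.08 to 4.29 in mutants, so the groups did not overlap. The lowest control was mouse 1, at 3.48, and without it the median log2 fold change was 0.24, with 21 of 26 genes above 0. The highest log2 fold changes were those of Ccne2, a cyclin of S-phase entry, at 0.74 (SE 0.22, adjusted p = 0.124 by limma), and Mcm6, a subunit of the replicative helicase, at 0.54 (SE 0.21, adjusted p = 0.207), and the lowest those of the licensing factor Cdt1 at -0.10 (SE 0.10, adjusted p = 0.625) and the flap nuclease Fen1 at 0.05 (SE 0.13, adjusted p = 0.853). The log2 fold changes of H1f2, H2bc4 and H2ac18 thus lay on the opposite side of 0 from those of most S-phase genes in the same mice. In Runx2+/- mice 21 of the 26 were below 0, with a median of -0.13.

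Genes of G2 and mitosis lay on the same sides. All 15 were above 0 in Med23 MSC -/- mice (median log2 fold change 0.26) and all 15 below 0 in Runx2+/- mice (median -0.32), without an adjusted p under 0.05 in either. With equal upper quartiles the Med23 median was 0.20, with 14 of 15 above 0, and with equal FPKM sums 0.17, with 13 of 15. Control mouse 1 again stood lowest, with a mean level of 2.89, against at most 3.50 in the other controls and 3.53 to 3.57 in the mutants. Without it the Med23 median was 0.09 and 11 of 15 genes were above 0. The mitotic checkpoint kinase gene Bub1 had 0.52 (SE 0.20, adjusted p = 0.210 by limma) and Aurkb, a kinase of the chromosomal passenger complex, 0.49 (SE 0.23, adjusted p = 0.269), while Ccnb2, a mitotic cyclin, had 0.03 (SE 0.22, adjusted p = 0.951) and Aurka, a spindle kinase, 0.09 (SE 0.17, adjusted p = 0.810) in the Med23 comparison. The H4 sum had the same directions as these 15 genes, higher in Med23 MSC -/- and lower in Runx2+/- mice, a likeness picked after the values were seen. Its order in the Med23 comparison does not hold with equal FPKM sums. The H1, H2A and H2B sums were at 0.529, 0.820 and 0.755 times the control mean in Med23 MSC -/- mice. The H3 sum was at 1.07 and 0.979 times the control and WT means, with overlap in both comparisons. A link between histone sums and these genes was not tested. Against control mouse 1 alone, the only control without Xist, the Med23 medians of the S-phase and G2/M genes were 0.73 and 0.65. All values with controls left out were added once the values were known.

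For factors that transcribe or process histone mRNA only the median lay close to 0, while single genes ran from -0.28 to 0.35 in the Med23 comparison. Of 15 tested, 11 were above 0 in Med23 MSC -/- mice (median 0.07, and 0.03 or 0.01 under the rescalings) and 5 in Runx2+/- mice (median -0.04). Slbp, the stem-loop binding protein, had a log2 fold change of 0.35 (SE 0.09, adjusted p = 0.108 by limma) and Eri1, an exonuclease that trims histone mRNA ends, 0.30 (SE 0.12, adjusted p = 0.198), while Lsm10, a subunit of the U7 particle that cuts the 3' end, had -0.28 (SE 0.08, adjusted p = 0.118) and the endonuclease gene Cpsf3 -0.14 (SE 0.09, adjusted p = 0.390). Npat, the activator of histone genes at the cell cycle, was at 0.18 (SE 0.13, adjusted p = 0.453), a value picked after the results were seen.

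Histone chaperones were above 0 in 16 of 17 cases in Med23 MSC -/- mice (median 0.28) and in 10 of 17 in Runx2+/- mice (median 0.06). In the Med23 comparison these became 12 of 17 (median 0.21) with equal upper quartiles and 11 of 17 (median 0.18) with equal FPKM sums. Hat1, the acetyltransferase of new histone H4, was at 0.64 (SE 0.13, adjusted p = 0.0581 by limma) and Nasp, an H3-H4 and H1 chaperone, at 0.50 (SE 0.14, adjusted p = 0.115). Daxx and Supt6, which serve H3.3 deposition and transcription through nucleosomes, were at -0.06 (SE 0.09, adjusted p = 0.770) and 0.01 (SE 0.10, adjusted p = 0.953).

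Histone variants, made outside S phase as well and from polyadenylated mRNA, were much more abundant than the replication-dependent genes in these libraries. The summed level of 11 variant genes was 2944 to 3576 FPKM over the 12 mice, against 391 to 579 FPKM for the 66 members. Their median log2 fold change was 0.05 in Med23 MSC -/- and 0.07 in Runx2+/- mice, and the former turned to -0.01 and -0.05 under both rescalings and to -0.04 without control mouse 1, while the latter lay between -0.04 and 0.14 with single mice left out. Macroh2a2 was at 0.37 (SE 0.12, adjusted p = 0.157 by limma) and H2ax, the H2A form of the DNA damage response, at 0.35 (SE 0.25, adjusted p = 0.461). H1f0, the linker histone of resting and differentiated cells, was at -0.30 (SE 0.08, adjusted p = 0.112) and H1f10 at -0.21 (SE 0.16, adjusted p = 0.482), values on the same side as that of H1f2.

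**Figure D4:**
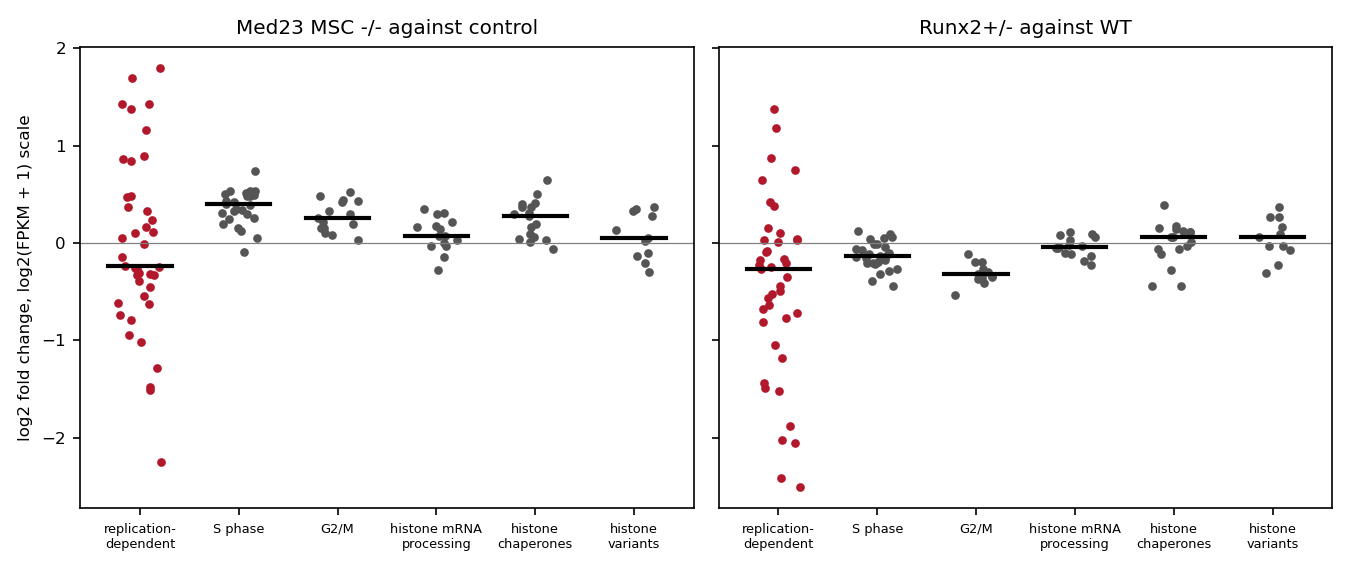
Log2 fold changes on the log2(FPKM + 1) scale of the 41 tested replication-dependent histone genes and of 5 lists of partner genes, 1 point per gene with horizontal jitter, bars at the median, left for Med23 MSC -/- against control and right for Runx2+/- against WT. The replication-dependent genes spread from -2.25 to 1.80 and from -2.51 to 1.38, much wider than the partner genes, and the S-phase and G2/M genes lie mostly above 0 on the left (medians 0.40 and 0.26) and below 0 on the right (medians -0.13 and -0.32).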

How the data were processed

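FPKM values, 1 per RefSeq transcript and mouse, had been deposited by the authors, who prepared libraries from 1 µg of total RNA with a TruSeq kit. The submitters' processing notes name Bowtie 0.12.8 and the build mm10, and the program that estimated FPKM is not given in the sources used here. Transcripts were named by the NCBI gene table (29835) or GENCODE M21 (180), 396 kept their identifier, and FPKM was summed per gene. A gene was tested if 3 or more of the 12 mice reached 1 FPKM. The test was limma 3.58.1 (R 4.3.3) on log2(FPKM + 1) with a mean-variance trend and Benjamini-Hochberg adjustment, fitted to the 6 mice of each comparison on their own. The fit was tested on simulated data. Each mouse is 1 animal by the labels. The p-values set a difference between groups against the variation between these mice, which limma moderates across genes. The rest was computed in Python 3.11.15 (pandas 2.3.3, figures by matplotlib 3.10.9). Promoters are from RefSeq (GRCm38.p6), transcripts from GENCODE M21. The members and lists were chosen with earlier results of these data known. Every member with a mean of at least 1 FPKM was described, and from each partner list the 2 genes with the highest and the 2 with the lowest log2 fold change in the Med23 comparison. The alternatives were another pseudocount, no filter, a joint fit of both comparisons, a block for the replicate number, rescaled FPKM, no trend and leaving out each mouse. Depth was estimated from the smallest products of FPKM and length among single-transcript genes no shorter than 2000 bases and is rough. Batches were not given in the sources used here, so no within-batch value could be computed.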

Additional observations from a re-analysis of the deposited data

Results flagged for a closer look

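The summed H4 level stood out because all mutants moved one way in one comparison and the opposite way in the other. It was 1.25 times the control mean in Med23 MSC -/- mice and 0.534 times the WT mean in Runx2+/- mice, without overlap as deposited. In the Med23 comparison the gap was narrow, with 46.4 FPKM in mutant mouse 3 and 46.0 in control mouse 3. That mutant also had the larger sum of all FPKM (1051760 against 988236), so this order does not hold with equal FPKM sums. The G2/M genes stood out for the same reason, their median log2 fold change being 0.26 in the Med23 comparison and -0.32 in the Runx2 comparison, and mean levels on the log2(FPKM + 1) scale of 2.89 to 3.50 in controls, 3.53 to 3.57 in Med23 MSC -/-, 3.34 to 3.55 in WT and 2.97 to 3.199 in Runx2+/- mice. Without control mouse 1, the lowest of the controls, the G2/M median in the Med23 comparison was 0.09. Neither difference between the comparisons was tested. Beyond the members with a mean from 1 to under 10 FPKM, groups of 3 mice were not searched for single outlying mice.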

How the results depend on the processing

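In the Med23 comparison the 205 genes called became 1 without the filter, 717 with all 12 mice in 1 fit, 107 with FPKM rescaled to the same sum and 89 without the trend, and 0 to 35 when single mice were left out. Under both rescalings the calls tipped to the lower side (73 of 205 lower as deposited, 84 of 150 with equal upper quartiles, 65 of 107 with equal sums). The 3 members called became 0 without the filter, 1 without the trend and 0 in every fit with 1 mouse left out. The median of the members, -0.24, lay between -0.24 and 0.051 when single mice were left out. Without the 2 control libraries with Xist, an alternative chosen after seeing the data that leaves 1 control assumed to vary like the mutants, 0 genes and 0 members were called, the median was 0.0091, and H1f2, H2bc4, H2ac18, H2aw and H2bc8 were at -1.05, -0.73, -0.46, -0.50 and -2.14. The H2B ratio became 0.704 with equal sums. Leaving out single mice moved the H1 ratio between 0.498 and 0.569, H2A 0.758 and 0.897, H2B 0.738 and 0.785, H3 0.870 and 1.35, H4 1.16 and 1.34, and all members 0.725 and 0.786.

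In the Runx2 comparison the 247 genes called became 14 without the filter, 95 with all mice in 1 fit and 34 to 169 with single mice left out, and the 2 members 0, 1 and 1 to 4. The median of the members became -0.82 with a pseudocount of 0.1 and -0.51 to -0.19 with mice left out. Without WT mice 1 or 2, or Runx2+/- mouse 1, H1f2 turned to -0.09, -0.03 and -0.17, and H2bc4 turned to 0.045 without WT mouse 3 and 0.030 without Runx2+/- mouse 3, within ranges of -0.17 to 0.18 and -0.18 to 0.045 over the mice left out. The ratios ranged over 0.871 to 1.13 for H1, 0.796 to 0.931 for H2A, 0.853 to 0.970 for H2B, 0.855 to 1.09 for H3, 0.473 to 0.673 for H4 and 0.806 to 0.964 for all members. The causes were not tested.

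Mice with the same replicate number share only a number. Their deviations correlated at 0.18, 0.26 and 0.05 across genes in the Med23 comparison, where all 6 mice correlated best with their own number, a hint from the data, and at 0.00, -0.05 and -0.08 in the Runx2 comparison. With the replicate block 273 genes and 4 members were called in the former and 90 genes and 2 members in the latter. The low depth of most members limits every statement on single copies.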
